A study of Homo sapiens with 9 samples.

Results

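Krüppel-like factors (KLFs) are transcription factors with C-terminal zinc fingers, and 10 of their genes, KLF2, KLF3, KLF4, KLF5, KLF6, KLF7, KLF9, KLF10, KLF13 and KLF15, of 19970 protein-coding genes in all, are described here for accessible chromatin. The 10 genes were a given list, chosen by gene family with the gained regions near KLF13 in these data known, and every deposited region in each gene plus 50 kb on both sides was taken (GRCh38). The assay was ATAC-seq, which tags open DNA with the transposase Tn5, in SK-N-MC, an established Ewing sarcoma cell line. The 3 groups carried doxycycline-inducible short hairpin RNAs: shCHD4#1 and shCHD4#2 against CHD4, the remodelling ATPase of the NuRD complex, with the labelled genotype CHD4 knockdown, and shScramble as the control, labelled wildtype. All groups received 100 ng/ml doxycycline for 48 h, and 100 Drosophila S2 cells were added to each 100000 SK-N-MC cells. The labels name 3 biological replicates per group, 9 samples in all. The data were 3 region lists, 1 per group, each filed under replicate 1 and taken as the combined list of its group, which is an inference. There was therefore no spread between replicates, no difference between groups could be tested, and read depth was unknown.

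KLF proteins share a DNA-binding domain that recognises GC-rich and CACCC-like boxes, and they differ in the parts that recruit cofactors. KLF9, KLF10 and KLF13 bind the SIN3A corepressor, KLF3 binds the corepressor CtBP, and KLF2, KLF4, KLF5, KLF6 and KLF7 are mostly known as activators. Several respond fast to growth factors, hormones or flow, and KLF2, KLF4 and KLF5 also act in pluripotent cells.

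The lists held 122869 regions with shCHD4#1, 83241 with shCHD4#2 and 85775 with shScramble on chromosomes 1 to 22 and X, which is 1.43 and 0.970 times the shScramble number. A longer list has more regions at most genes, so the counts of members that differ stand beside the share of all genes that did. For a check of the cell line, a region lay within 1 kb of an end of 8 of 8 Ewing sarcoma marker genes in every list. Of 4 blood cell markers this held for 3 with shCHD4#1, 2 with shCHD4#2 and 3 with shScramble. It held for 1 of 3 epithelial markers in every list and for the liver gene ALB in none. Of all protein-coding genes, 59.1% had such a region in all 3 lists, so the check says little about cell identity.

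The DNA just before the start of 4 members is shown. At KLF2 and KLF4 the lists differ in it, at KLF13 they differ within 1 kb of the start but not in the stretch itself, and at KLF9 a region met it in every list. The start sites and sequences are those of RefSeq (GRCh38.p14), whose promoter table matched 8 of the 10 members, all but KLF3 and KLF10, with 1 start site per gene. Each run is the 250 bases before the start, and capitals mark matches to CCNCNCCC, the KLF and SP box, on either strand. KLF2 (chr19:16324576-16324825, + strand) and KLF4 (chr9:107489770-107490019, - strand) come first, then KLF13 (chr15:31326585-31326834, + strand) and KLF9 (chr9:70414658-70414907, - strand).
KLF2: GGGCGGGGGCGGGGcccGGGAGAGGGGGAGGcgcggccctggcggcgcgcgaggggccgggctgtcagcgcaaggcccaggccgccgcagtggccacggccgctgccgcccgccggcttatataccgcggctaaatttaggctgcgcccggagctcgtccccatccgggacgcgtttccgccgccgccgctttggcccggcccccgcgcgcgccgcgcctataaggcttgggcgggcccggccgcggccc
KLF4: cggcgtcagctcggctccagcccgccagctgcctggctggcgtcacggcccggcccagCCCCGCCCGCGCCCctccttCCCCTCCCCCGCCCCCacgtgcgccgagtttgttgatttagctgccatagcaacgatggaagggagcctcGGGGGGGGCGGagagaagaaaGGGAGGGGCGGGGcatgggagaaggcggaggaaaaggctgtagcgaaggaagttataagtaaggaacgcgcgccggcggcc
KLF13: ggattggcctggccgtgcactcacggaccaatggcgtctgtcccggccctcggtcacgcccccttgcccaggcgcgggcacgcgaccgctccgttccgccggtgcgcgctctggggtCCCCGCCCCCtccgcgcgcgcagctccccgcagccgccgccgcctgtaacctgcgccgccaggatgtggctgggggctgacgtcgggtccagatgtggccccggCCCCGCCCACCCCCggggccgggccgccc
KLF9: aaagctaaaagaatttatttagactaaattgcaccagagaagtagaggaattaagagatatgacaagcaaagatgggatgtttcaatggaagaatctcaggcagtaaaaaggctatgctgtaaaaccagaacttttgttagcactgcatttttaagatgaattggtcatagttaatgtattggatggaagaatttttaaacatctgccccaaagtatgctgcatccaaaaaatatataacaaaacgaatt

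In the KLF2 and KLF4 stretches, all 250 bases lay inside a region with shCHD4#1 and with shCHD4#2, and 0 bases lay inside one with shScramble. Over 15811 start sites, 8.91% were met by a region in both hairpin lists but in no shScramble region, and so were 2 of the 8 members, KLF2 and KLF4. A region met the stretch in all 3 lists at 3 of the 8, KLF7, KLF9 and KLF15, against 39.7% of all start sites. The KLF13 stretch was met by no region in any list. At KLF9, 250 bases were covered with shCHD4#1, 153 with shCHD4#2 and 250 with shScramble. The KLF9 stretch was AT-rich, with 32.4% G and C, against 80% at KLF2, 69.2% at KLF4, 78.8% at KLF13 and a median of 62.4% over all start sites.

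The box CCNCNCCC matched 5 times at KLF2, 10 times at KLF4, 4 times at KLF13 and not at KLF9, counting overlapping matches each. It occurred before 6 of the 8 member starts and before 64.4% of all starts. GGGCGG, the GC box, whose complement CCGCCC lies inside some of these matches, occurred before 5 of 8 member starts and 55.98% of all. The ETS motif CCGGAAG was found before none of the 8 and before 11.8% of all, and GGAAGGAA, a short form of the repeat that EWSR1::FLI1 binds, before none of the 8 and 3.06% of all. Both strands were searched for each motif. These are letter matches in a short window and not bound sites.

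At the 10 genes together, 113 regions were listed with shCHD4#1, 73 with shCHD4#2 and 67 with shScramble. That is 1.69 and 1.09 times the shScramble number, above the ratios of the whole lists. The bases covered were 221 kb with shCHD4#1, 108 kb with shCHD4#2 and 124 kb with shScramble, so shCHD4#2 had more regions but fewer bases than shScramble. Its regions were narrower, with a median width of 1190 bp against 1710 bp with shScramble. The whole lists differed likewise, with 1040 bp for shCHD4#2 and 1450 bp for shScramble. Without KLF13, the region numbers were 89 with shCHD4#1, 55 with shCHD4#2 and 61 with shScramble, or 1.46 and 0.902 times. With the lists made almost equally long, at the best 75000 regions of each by the authors' p with ties kept, the numbers were 69 with shCHD4#1, 59 with shCHD4#2 and 52 with shScramble. KLF13 then had 15 with shCHD4#1, 14 with shCHD4#2 and 4 with shScramble.

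**Figure D1:**
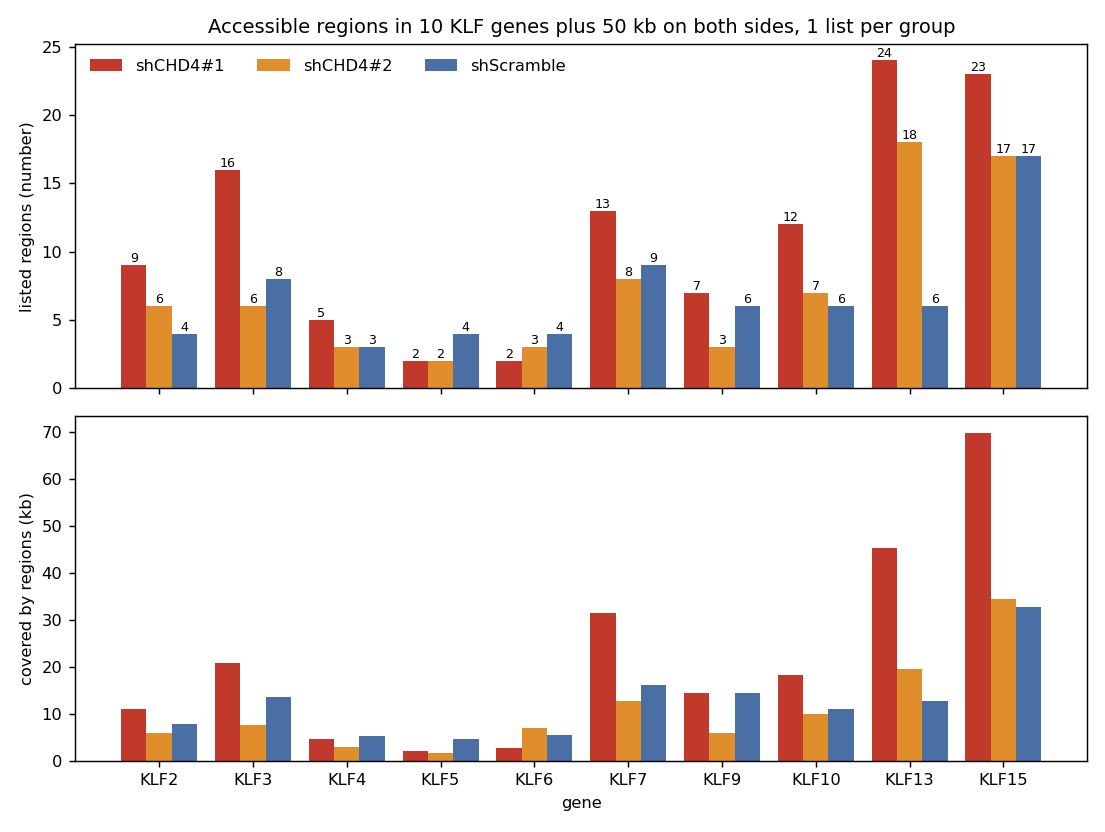
Regions listed (upper bars, number) and length covered by them (lower bars, kb) in each KLF gene plus 50 kb on both sides, with shCHD4#1, shCHD4#2 and shScramble from left to right and 1 list per group, so no error bars. KLF13 had 24, 18 and 6 regions in this order, while KLF5 and KLF6 had fewer regions in each hairpin list than in the shScramble list.

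Both hairpin lists exceeded shScramble in region number at KLF2, KLF10 and KLF13, 3 of the 10 genes, against 35.3% of all protein-coding genes. Both fell short of it at KLF5 and KLF6, 2 of the 10, against 12.0% of all. Neither share of the members stood far from that of all genes. KLF3, KLF7 and KLF9 had more with shCHD4#1 and fewer with shCHD4#2, a split seen in 23.0% of all genes. KLF4 and KLF15 had more with shCHD4#1 and as many with shCHD4#2. The median difference from shScramble over the 10 genes was 4.5 regions with shCHD4#1 and -0.5 with shCHD4#2, beside 2 and 0 over all genes.

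The regions of the 3 lists were merged into 105 stretches that share no base, called places here. Of these, 34 were in all 3 lists, 18 were gained with both hairpins (in both knockdown lists, outside the shScramble list) and 5 were lost with both. Places of shCHD4#1 only numbered 33, or 31.4%, against 29.0% of all merged places, and those of shCHD4#2 only 5, or 4.76%, against 5.44%. Absent with shCHD4#2 only were 9, or 8.57%, against 9.11%, and absent with shCHD4#1 only was 1, or 0.952%, against 2.70%. The 34 shared places made up 32.4%, against 33.2%. The gained places made up 17.1% (95% Wilson interval 11.1 to 25.5) of the 105, against 10.0% of all 130785 merged places. Lost places made up 4.76% (2.05 to 10.7) against 10.5%. The lost number depended on the settings, with 10 of 94 places at the best 75000 regions, against 18.1% of all merged places, and 10 of 123 where an overlap had to cover 50% of the shorter region, against 12.4%. KLF13 held 8 of the 18 gained places, and without it the gained share was 12.2% (6.76 to 21.0). These intervals cover counting error only and treat neighbouring places as independent. The list was chosen with the gained regions near KLF13 known, so the interval over all 105 places tests nothing.

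**Figure D2:**
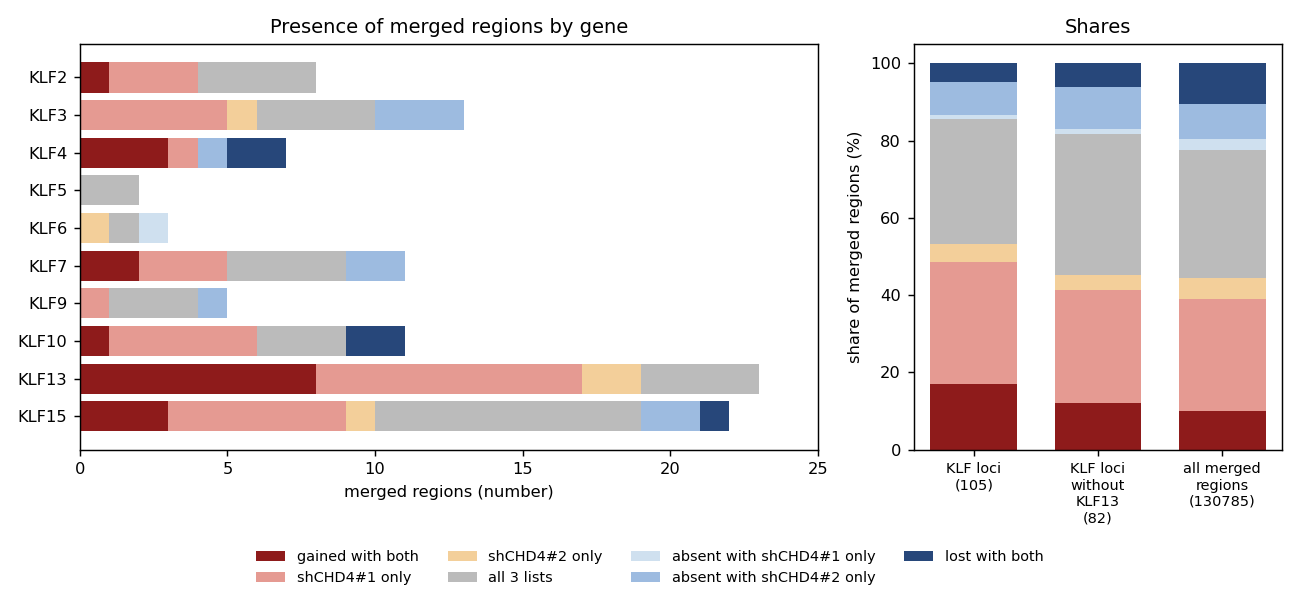
Merged places by presence pattern, as numbers per gene (left bars) and as shares of the KLF loci, of the KLF loci without KLF13 and of all merged places (right bars, %). KLF13 held 8 gained and no lost places, and the gained share was 17.1% over the 105 KLF places and 10.0% over all 130785.

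Of the members that bind SIN3A, KLF13 had the most regions with both hairpins. KLF13, known as an activator of the chemokine gene CCL5 in T cells and for its part in heart development, spans 108831 bp (chromosome 15, 31326835 to 31435665, + strand). It had 24 regions with shCHD4#1, 18 with shCHD4#2 and 6 with shScramble. They covered 45.3 kb with shCHD4#1, 19.5 kb with shCHD4#2 and 12.7 kb with shScramble. More bases covered with both hairpins was seen at 2 members, KLF13 and KLF15, and at 25.7% of all genes. Of 1458 genes with 6 shScramble regions in the gene plus 50 kb, none had more than KLF13 with either hairpin. Their medians were 8 with shCHD4#1 and 6 with shCHD4#2. Window length varies with the gene and was not matched, and that of KLF13 was 208831 bp. Differences at least as large with both hairpins were seen at 48 of all genes. The list was chosen with gained regions near KLF13 known, so these numbers describe it and test nothing.

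All 6 shScramble regions of KLF13 lay inside the gene, in 4 places that both hairpin lists also held. The first of these places (31337571 to 31340450) lay 10736 bp after the start, and its best region ranked 5951 with shCHD4#1, 9275 with shCHD4#2 and 44772 with shScramble, counted from the best of each list. The second (31351481 to 31354340) and the widest (31356431 to 31370020, with 4, 3 and 3 regions) followed. The last (31372261 to 31375130) ranked 3671 with shCHD4#1, 4438 with shCHD4#2 and 55583 with shScramble. Ranks in lists of different length show no change by themselves. Regions with an authors' p of at most 0.05 numbered 3 with shCHD4#1, 2 with shCHD4#2 and 0 with shScramble. All of them lay in these shared places. In the gained places at KLF13 the lowest authors' p was 0.262 with shCHD4#1 and 0.382 with shCHD4#2.

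Of the 8 gained places at KLF13, 3 lay before the start and 5 overlapped the gene. Those before it were at 31301071 to 31302190, 31308091 to 31309050 and 31322651 to 31326120. The third of them put a region within 1 kb of the start with both hairpins, ending 835 bp before it with shCHD4#1 and 715 bp before it with shCHD4#2. The nearest shScramble region began 10736 bp after the start. Inside the gene lay 31343681 to 31345750, 31397231 to 31399310, 31399421 to 31400870 and 31404101 to 31404850, and across the gene's far end 31434821 to 31436810. The gained places lay 4390 to 50330 bp from the nearest shScramble region.

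A further 9 places at KLF13 were listed with shCHD4#1 only. Before the gene these were 31277821 to 31280500, 31280501 to 31281710 and 31302191 to 31302950. Inside it they were 31328021 to 31329510, 31329521 to 31334180, 31392241 to 31392610, 31403041 to 31403940 and 31432571 to 31433730, and just past it 31436811 to 31437820. With shCHD4#2 only, 31305711 to 31306840 and 31307041 to 31308090 were listed. No place at KLF13 was lost with both hairpins or absent with 1 of them.

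**Figure D3:**
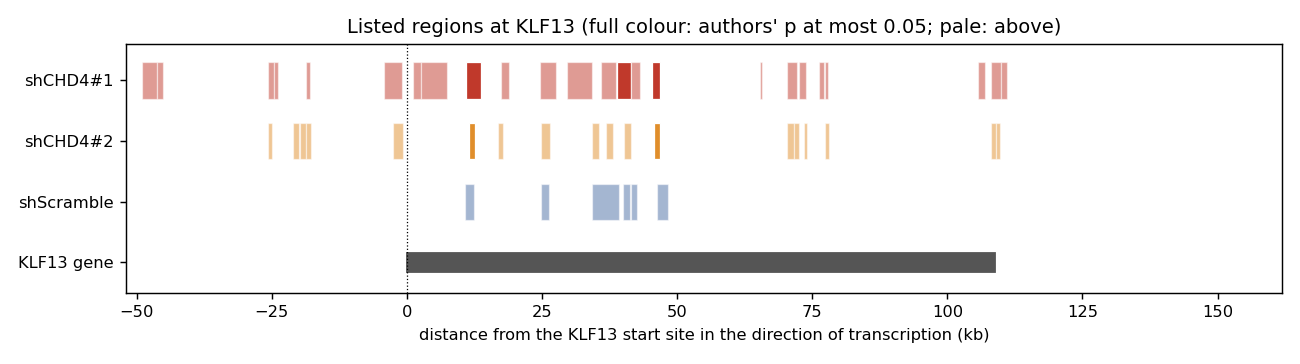
Regions listed at KLF13 with shCHD4#1, shCHD4#2 and shScramble from top to bottom, against the distance from the start site (kb), with the gene as a grey bar and full colour for an authors' p of at most 0.05. The 6 shScramble regions lie inside the gene, while both hairpin lists also have regions before the start and towards the far end.

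KLF9 is induced by thyroid hormone and glucocorticoids (chromosome 9, 70384604 to 70414657, - strand). It had 7 regions with shCHD4#1, 3 with shCHD4#2 and 6 with shScramble, covering 14.4 kb, 5.92 kb and 14.5 kb in this order. The region across its start (place 70413641 to 70415300) ranked 5542 with shCHD4#1, 4888 with shCHD4#2 and 7024 with shScramble. Places 70409511 to 70413600 and 70416471 to 70423020, on either side, were also in all 3 lists. Within the gene, 70391101 to 70395160 was absent with shCHD4#2 only, and 70401991 to 70404360 was listed with shCHD4#1 only. With the best 75000 regions of each list the numbers were 4 with shCHD4#1, 3 with shCHD4#2 and 4 with shScramble.

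KLF10 is an early gene of the TGF-beta response (chromosome 8, 102648784 to 102655725). It had 12 regions with shCHD4#1, 7 with shCHD4#2 and 6 with shScramble. They covered 18.3 kb with shCHD4#1, 9.9 kb with shCHD4#2 and 11.1 kb with shScramble, so fewer bases with shCHD4#2 than with shScramble. In the place that overlaps the gene (102650441 to 102660920), 4 regions were listed with shCHD4#1, 4 with shCHD4#2 and 2 with shScramble. The other places in all 3 lists were 102633791 to 102635370 and 102700451 to 102701280. Its gained place was 102626881 to 102630000. Its lost places, 102688031 to 102688820 and 102688821 to 102689480, touched each other and ranked 55125 and 66223 in the shScramble list. With shCHD4#1 only, 102615331 to 102617470, 102660921 to 102661950, 102661951 to 102663320, 102695551 to 102696600 and 102701281 to 102702010 were listed.

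The KLF10 result depended on how regions were counted. With the best 75000 regions of each list, it had 6 with shCHD4#1, 6 with shCHD4#2 and 5 with shScramble, and more with both was then seen at 27.1% of all genes. Counted as places, it had 9 with shCHD4#1, 4 with shCHD4#2 and 5 with shScramble, and was no longer higher with both. At an authors' p of at most 0.05 it had 3 regions with shCHD4#1, 3 with shCHD4#2 and 1 with shScramble.

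Among the activators, KLF2, which holds endothelial cells and T cells in a resting state, gained coverage of its start with both hairpins. KLF2 (chromosome 19, 16324826 to 16328685, + strand) had 9 regions with shCHD4#1, 6 with shCHD4#2 and 4 with shScramble. They covered 11.1 kb with shCHD4#1, 5.86 kb with shCHD4#2 and 7.92 kb with shScramble, so fewer bases with shCHD4#2 than with shScramble. The gained place (16323891 to 16325000) lay across the start, and its region ranked 44908 with shCHD4#1 and 17814 with shCHD4#2. The nearest shScramble region began 5945 bp after the start. KLF2 and KLF13 were the 2 of 10 members with a region within 1 kb of a gene end in both hairpin lists but none with shScramble, against 6.65% of all genes. By start site the same genes were 2 of 8, against 7.19% of all start sites, while 5 of 8 had a region there in all 3 lists, against 55.5%. At gene ends that was so for 6 of 10 members and 59.1% of all genes. A gene end met with shScramble and with neither hairpin was seen at 0 of 10 members and 1.43% of all genes.

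The other KLF2 places were mostly shared. In all 3 lists were 16287891 to 16289240, 16315681 to 16317320, 16330131 to 16333300 and 16373691 to 16377030, the last of which overlapped EPS15L1, an endocytosis gene. With shCHD4#1 only, 16285441 to 16286780, 16293431 to 16294630 and 16322351 to 16323690 were listed. No KLF2 region in any list reached an authors' p of at most 0.05.

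At KLF4, a reprogramming factor (chromosome 9, 107484852 to 107489769, - strand), a region crossed the start in each hairpin list, while the nearest shScramble region ended inside the gene. It had 5 regions with shCHD4#1, 3 with shCHD4#2 and 3 with shScramble, and no place in all 3 lists. The gained place 107489711 to 107490610 lay across the start and the sequence shown above. The lost place 107486251 to 107489710 lay in the gene and ended where the gained one began, 59 bp inside the start. Further along, the lost place 107452361 to 107453280 touched the gained place 107453281 to 107454390 in the same way. These were the 2 of 18 gained places in the family that touched a shScramble region. The third gained place, 107464751 to 107466140, lay 11470 bp from a shScramble region. The last places were 107455371 to 107456710, listed with shCHD4#1 only, and 107483691 to 107484690, absent with shCHD4#2 only.

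KLF5, a factor of epithelial and smooth muscle growth (chromosome 13, 73054976 to 73077538, + strand), had 2 regions with shCHD4#1, 2 with shCHD4#2 and 4 with shScramble. Both of its places, 73058001 to 73060240 inside the gene and 73089031 to 73092180 beyond it, were in all 3 lists. The shScramble list gave each place as 2 regions and the hairpin lists as 1. The second shScramble region of each place, 73059201 to 73060240 and 73091041 to 73092180, began after the shCHD4#1 region ended, at 73059150 and 73090210. Bases covered were 2.13 kb with shCHD4#1, 1.67 kb with shCHD4#2 and 4.57 kb with shScramble. Fewer bases with both hairpins was seen at 3 members, KLF4, KLF5 and KLF9, and at 18.8% of all genes. Of the 8 members with a matched start, KLF5 alone had no region within 1 kb of it in any list, against 27.2% of all starts. Only 1 start per gene was used, and other starts of KLF5 were not looked at. Its first place began 3025 bp after the start and ranked 14349 with shCHD4#1, 11474 with shCHD4#2 and 9706 with shScramble.

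KLF6, an injury-induced factor also studied as a tumour suppressor (chromosome 10, 3775996 to 3785209, - strand), had 2 regions with shCHD4#1, 3 with shCHD4#2 and 4 with shScramble. Its place in all 3 lists (3781641 to 3785680) covered the start side of the gene and held 2 regions with shCHD4#1, 1 with shCHD4#2 and 3 with shScramble. Place 3773971 to 3776650, at the far end of the gene, was listed with shCHD4#2 only, and 3785821 to 3787570, before the start, was absent with shCHD4#1 only. Counted as places, KLF6 had 1 with shCHD4#1, 3 with shCHD4#2 and 2 with shScramble. No member had fewer places in each hairpin list than in the shScramble list, against 10.1% of all genes.

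**Figure D4:**
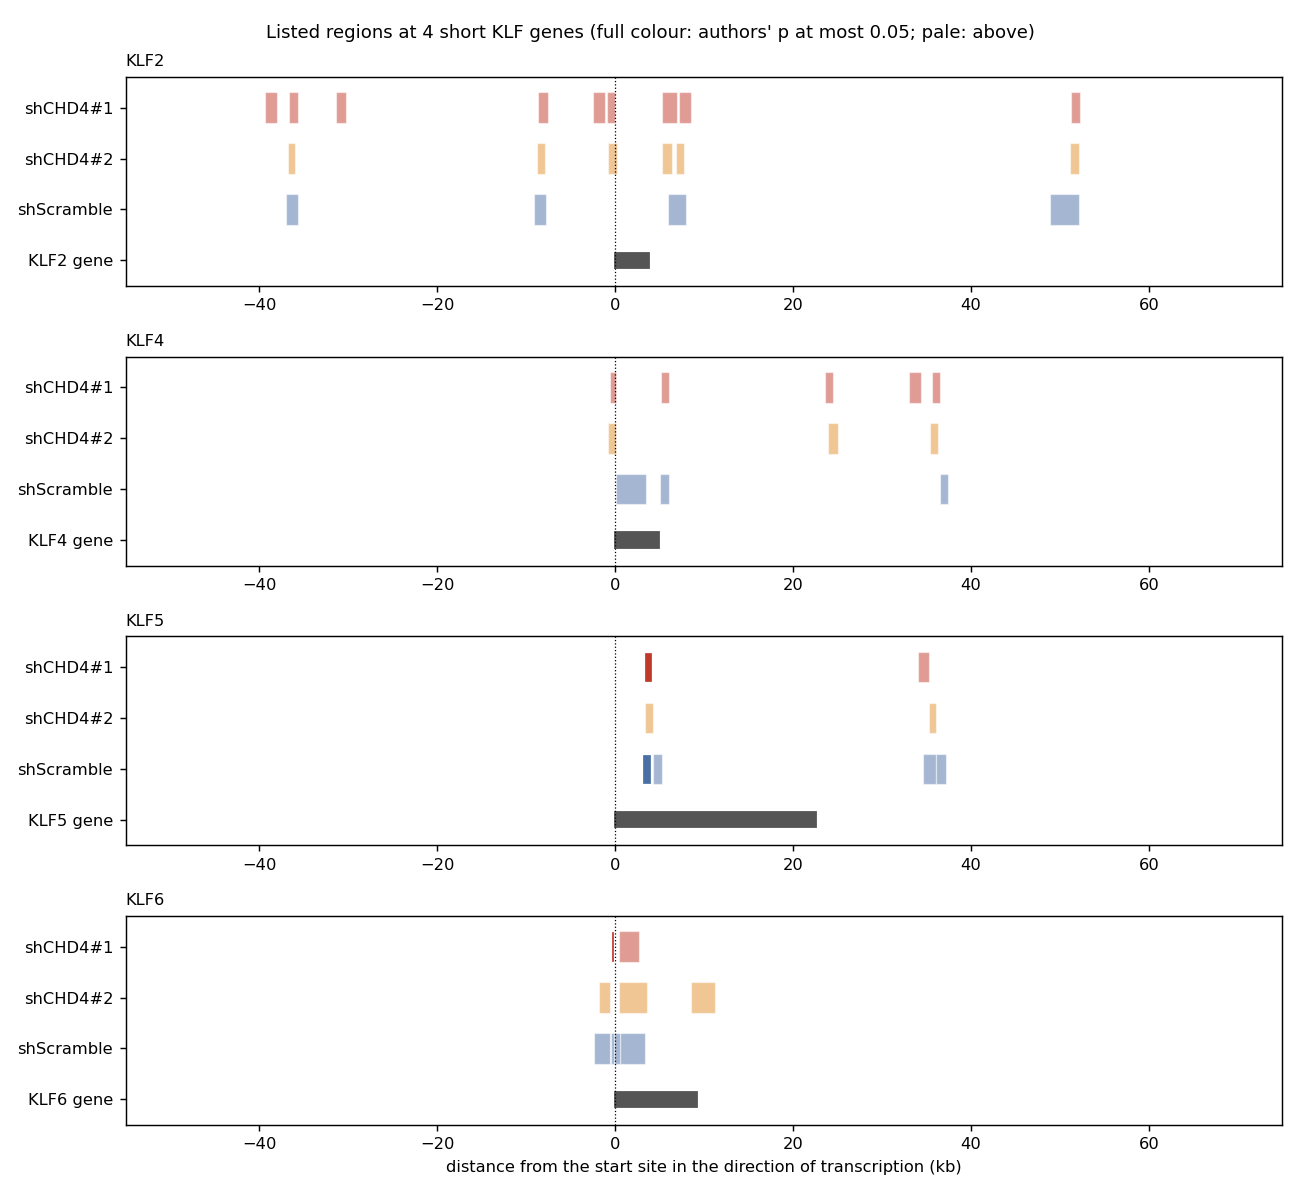
Regions listed at KLF2, KLF4, KLF5 and KLF6 with shCHD4#1, shCHD4#2 and shScramble from top to bottom in each panel, against the distance from the start site (kb), with the gene as a grey bar and full colour for an authors' p of at most 0.05. At KLF2 a region lies on the start in both hairpin lists and not in the shScramble list, and at KLF4 the hairpin regions on the start lie next to a shScramble region inside the gene.

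KLF7, a factor of neuronal outgrowth (chromosome 2, 207074137 to 207173851, - strand), had 13 regions with shCHD4#1, 8 with shCHD4#2 and 9 with shScramble. The widest of its places in all 3 lists (207155791 to 207169280) lay across the start. Inside the gene, 207131851 to 207135810, 207137661 to 207139980 and 207141721 to 207145920 were also in all 3 lists. The last of these was the best-ranked KLF7 place in every list, at rank 751 with shCHD4#1, 1602 with shCHD4#2 and 3132 with shScramble. Gained places were 207046491 to 207047290 and 207066341 to 207067920, both past the far end of the gene. Absent with shCHD4#2 only were 207073291 to 207075080, at the far end, and 207205541 to 207206700, before the start. With shCHD4#1 only, 207034611 to 207035650, 207146911 to 207150300 and 207222991 to 207223890 were listed.

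KLF3, the CtBP-binding repressor of this set, limits fat and blood cell programmes in mice (chromosome 4, 38664199 to 38701517). It had 16 regions with shCHD4#1, 6 with shCHD4#2 and 8 with shScramble, and no gained or lost place. A shared place lay across its low-coordinate end (38663111 to 38668220). Its best region lay inside the gene and ranked 2479 with shCHD4#1, 2578 with shCHD4#2 and 1093 with shScramble. The region on the gene end itself ranked 32738 with shCHD4#1, 77712 with shCHD4#2 and 77947 with shScramble. Places 38671201 to 38676420, 38676421 to 38678190 and 38730491 to 38732220 were in all 3 lists too. Absent with shCHD4#2 only were 38612761 to 38614260, 38716051 to 38717270 and 38734191 to 38735900. With shCHD4#1 only, 38616901 to 38617740, 38678821 to 38679700, 38688851 to 38689820, 38689821 to 38691080 and 38728001 to 38729410 were listed, and with shCHD4#2 only 38614631 to 38615250.

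KLF15, a fasting and glucocorticoid-induced regulator of metabolism (chromosome 3, 126288125 to 126357408, - strand), had 23 regions with shCHD4#1, 17 with shCHD4#2 and 17 with shScramble. It was the most covered member, with 69.9 kb with shCHD4#1, 34.5 kb with shCHD4#2 and 32.7 kb with shScramble. Counted as places it had 20 with shCHD4#1, 13 with shCHD4#2 and 12 with shScramble, and joined KLF2 and KLF13 as 3 members with more with both hairpins, against 32.0% of all genes. Its gained places were 126249741 to 126253590, past the far end, and 126306261 to 126307860 and 126316921 to 126318430, inside the gene. The second of them ranked 9621 with shCHD4#1 and 11018 with shCHD4#2, and the third lay 90 bp from a shScramble region. Its lost place was 126369601 to 126371320, before the start.

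In all 3 lists at KLF15 were 126253891 to 126262680, 126263651 to 126265740, 126285311 to 126293300, 126309331 to 126316830 and 126337511 to 126343160. Nearer the start, 126343171 to 126343940, 126344651 to 126351150, 126351321 to 126360270 and 126364311 to 126367340 were shared as well. In the place across the start (126351321 to 126360270), the region on the start ranked 4782 with shCHD4#1, 7313 with shCHD4#2 and 77947 with shScramble. The best shScramble region of that place, 126357761 to 126360030, lay before the start and ranked 7002. The shared place before the start (126364311 to 126367340) ranked 647 with shCHD4#1, 5681 with shCHD4#2 and 38356 with shScramble. With shCHD4#1 only, 126246831 to 126248260, 126268671 to 126274780, 126293301 to 126295150, 126330961 to 126332350, 126362621 to 126364210 and 126385741 to 126387550 were listed. With shCHD4#2 only, 126307881 to 126309330 was listed. Absent with shCHD4#2 only were 126375731 to 126379080 and 126407171 to 126411210, the second of which overlapped CFAP100, a cilia gene.

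Across the family, as over all merged places, shared places were wider and better ranked than gained ones. Part of this is given by the merging, since a shared place is the union of regions from all 3 lists. A wider place can also hold more regions of a list, and the best of them was taken. The median width was 1480 bp over the 18 gained places and 3255 bp over the 34 in all 3 lists, beside 1510 bp and 2540 bp over all merged places of these kinds. The best region of a place stood, in the median, at the 42.1% point of the shCHD4#1 list and the 60.4% point of the shCHD4#2 list for gained places, counted from the best. For places in all 3 lists it stood at the 16.9% point with shCHD4#1, the 22.7% point with shCHD4#2 and the 33.7% point with shScramble, beside 23.0%, 32.9% and 30.2% over all merged places in all 3 lists. Over all gained places of the genome the medians were 41.6% with shCHD4#1 and 60.5% with shCHD4#2, close to those of the family. By position, 9 of the 18 gained places overlapped a KLF gene, as did 22 of the 34 in all 3 lists and 1 of the 5 lost. The same shares over all merged places were not counted, so these numbers only describe the family.

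The other KLF genes and the related SP genes, which bind the same boxes, were counted in the same way. Of 17 such genes, region number was above shScramble in both hairpin lists at 6 and below it in both at 1, against 35.3% and 12.0% of all genes, with a median difference from shScramble of 4 with shCHD4#1 and -1 with shCHD4#2. Those with the largest changes were KLF12, KLF16, SP6 and SP2. KLF16, another SIN3A-binding member, had 22 regions with shCHD4#1, 24 with shCHD4#2 and 15 with shScramble. KLF12, a CtBP-binding repressor, had 31 with shCHD4#1, 14 with shCHD4#2 and 18 with shScramble. SP6 had 21, 11 and 13 in this order of groups and SP2 24, 15 and 17, and as neighbours they share regions. A gene end near no shScramble region had one within 1 kb in both hairpin lists at 4 of the 17, against 6.65% of all genes. These were KLF1, KLF8, SP5 and SP8, named after their values were seen.

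Of 12 cofactors and upstream regulators of KLF proteins, 4 had a higher region number in both hairpin lists and 1 a lower one, against 35.3% and 12.0% of all genes. MEF2D, of the MEF2 factors that switch on KLF2 and KLF4 downstream of ERK5, had 28 with shCHD4#1, 21 with shCHD4#2 and 11 with shScramble. The corepressor gene CTBP2 had 25, 18 and 17 in the same order and CTBP1 had 15, 6 and 7. The acetyltransferase gene EP300 had 14, 6 and 6. KAT2B, another acetyltransferase gene, with 6, 6 and 2, and the corepressor gene SIN3B, with 10, 12 and 7, had the same summed change as EP300. A gained gene end of this kind was seen at 0 of the 12, against 6.65% of all genes.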

How the data were processed

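The deposited files were 3 lists of accessible regions, 1 per group. Reads were trimmed and checked with Trimmomatic 0.36 and FastQC 0.11.7, and deepTools 3.2.1, SAMtools 1.9 and BWA were used, with the builds GRCh38 and dm6, per the submitters' processing notes. The caller, a shift for the Tn5 cut and the use of the fly spike-in are not given in the sources used, and the deposited names hold that of ChIP-R, which combines replicate lists. The authors' p-value sorts each list and gave the ranks, and the deposited scores and q-value entered no result beyond leaving out negative values in 1 alternative. Replicates 2 and 3 of each group are not analysed here as separate lists, and depth and precision per sample are unknown.

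Regions on chromosomes 1 to 22 and X were kept, and regions that share at least 1 bp were merged (Python 3.11.15, pandas 2.3.3). The window was the RefSeq gene plus 50 kb on both sides, and a gene end was covered by a region within 1 kb. A region crossing the window's edge counted. Merging and counting were tested on simulated data, and 3000 of 3000 patterns were recovered. All 10 members are named by rule, with up to 4 genes of each further list by summed change in region number. Members and lists were chosen with earlier results of these data known. The alternatives were other windows, thresholds, list lengths and overlaps.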

Additional observations from a re-analysis of the deposited data

Results flagged for a closer look

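At 3 members the hairpins lay on opposite sides of shScramble in region number. At KLF3 the difference from shScramble was 8 with shCHD4#1 and -2 with shCHD4#2. At KLF7 it was 4 with shCHD4#1 and -1 with shCHD4#2, and at KLF9 it was 1 with shCHD4#1 and -3 with shCHD4#2. The difference between the hairpins was not tested, since each has 1 list. The same split was seen at 23.0% of all protein-coding genes, and the shCHD4#1 list held 1.43 times as many regions as the shScramble list.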

How the results depend on the processing

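Of 67 values under other settings, 37 stayed within 1.5 times the reported one. With an authors' p of at most 0.05, the KLF loci held 19 regions with shCHD4#1, 13 with shCHD4#2 and 7 with shScramble. Of 22 places then, 5 were gained and 0 lost, against 13.1% and 12.4% of all merged places. These 5 were not gained as reported but lay in places of all 3 lists, where the shScramble regions had a p above 0.05. No place gained as reported had a region at this p in both hairpin lists. More regions with both hairpins were then seen at 4 members (20.6% of all genes) and fewer at 0 (9.39%), and 0 gained a covered end. With the best 20000 regions the numbers were 20, 20 and 13 regions, with 5 gained and 3 lost of 31 places (11.5% and 17.6% of all merged places). Of these gained places, only 126306261 to 126307860 at KLF15 was also gained as reported. There, 3 members had more (19.2% of all genes), 1 had fewer (18.0%) and 0 gained a covered end. The best 80000 left 73 with shCHD4#1 and 11 lost of 95 places, against 17.4% of all merged places. However, ties in the authors' p made those lists 80002, 82844 and 85384 regions long, with 31.7% of all genes fewer with both. At the best 75000, chosen after seeing the data for lists of 75007, 75103 and 75019 regions, there were 69 with shCHD4#1. Lost places were 10 of 94, against 18.1% of all merged places. With gene plus 5 kb there were 71 regions with shCHD4#1, 10 gained and 1 lost of 55 places, and with 20 kb 2 lost of 72. With 100 kb there were 185, 115 and 101 regions, 9 lost of 175 places, 5 members with more (39.6% of all genes) and 1 with fewer (10.0%). The shares over all merged places, 10.0% gained and 10.5% lost, were counted without any gene window, so they are the same for every window. An overlap of 50% of the shorter region gave 10 lost of 123 places, against 12.4% of all merged places. Counting places, a setting chosen after seeing the data, left 0 members with fewer. The causes were not tested, although stricter thresholds and narrower windows hold fewer regions by construction. Under every setting run for single genes KLF13 had more regions with both hairpins, though not always the same regions. At an authors' p of at most 0.05 they lay only in places that all 3 lists held as reported. No paired analysis was possible because each group has 1 list and the result comes from no test, and no replicate could be left out for the same reason.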
